A study of Homo sapiens with 6 samples.

Results

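The transcripts described here encode 10 proteins that detect nucleic acid in the cytosol or in endosomes, or that relay the signal from such a receptor. They are DDX58 (RIG-I), IFIH1 (MDA5), DHX58 (LGP2), MAVS, TLR3, EIF2AK2 (PKR), ADAR, CGAS, TMEM173 (STING) and TBK1. The genes were chosen by name for these roles, with earlier results of these data known, and all 10 were found among the 37887 rows of the count table. Of the 24406 rows with at least 1 count, 15355 passed the filter on low counts and were tested, among them 9 of the 10 genes. DHX58 was too low to test.

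RNA was measured in MDA-MB-436, a cell line from triple-negative breast cancer with a mutated BRCA1. By the treatment labels and the design text, all cells carried a tetracycline-inducible shRNA against MUC1. The sample titles instead call the controls control shRNA, and this conflict was not resolved. Apart from the replicate number, the names of the count columns differ between groups only in the mark for doxycycline. If the titles hold, the groups also differ in their vector. Of the 6 libraries, 3 came from cells given the vehicle, 0.1% DMSO (control), and 3 from cells given 500 ng/ml doxycycline, which induces the shRNA (shMUC1). A control shRNA with doxycycline was not analysed here, so effects of doxycycline and of MUC1 silencing cannot be told apart. The length of treatment is not in the labels, which name neither a clone nor separate passages. The cultures are described as triplicates, and p-values measure the spread between these samples, which may be technical.

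Library totals ran from 18678307 to 27825546 counts. MUC1, the targeted gene, went from 3.88 ± 0.401 to 2.14 ± 0.412 counts per 1000000 counts (CPM, mean ± SD, n = 3 each). It fell by 0.84 in log2 units (SE 0.214). The adjusted p was 0.00119 (quasi-likelihood test of edgeR, with Benjamini-Hochberg adjustment over all tested genes), and the groups did not overlap. Of the 4717 MUC1 exon bases, 48 also belong to AL713999.1, read from the same strand. That gene has no row of counts, and whether it affected the MUC1 count is not known. Of the receptors that define the tumour type by their absence, ESR1 had 14 counts summed over control and 24 over shMUC1 libraries, PGR had 6 and 0, and ERBB2 had means of 44.7 and 39.0 CPM. Epithelial KRT8 and KRT18 were present, with means of 426 and 131 CPM in control and 825 and 266 CPM in shMUC1 cells. VIM, an intermediate filament of mesenchymal cells that such lines also express, was lower, at 718 ± 26.0 CPM in control and 417 ± 25.2 CPM in shMUC1 cells (SD, n = 3 each, edgeR adjusted p = 2.1e-20). The 5 leukocyte markers together ran from 3.28 to 3.60 CPM in control and from 5.97 to 9.24 CPM in shMUC1 libraries, mostly CD14. CD14 was higher in shMUC1 cells (log2 fold change 1.08, edgeR adjusted p = 2.93e-06). PTPRC was also higher, with 18 counts summed over control and 55 over shMUC1 libraries (log2 fold change 1.59, edgeR adjusted p = 0.0113). CD3E was at 0 in all libraries and LYZ had 2 counts in 1 library. The 5 fibroblast markers summed to between 3.24 and 5.27 CPM in control and between 2.21 and 3.11 CPM in shMUC1 libraries, with COL1A2, DCN and LUM at 0. The 3 endothelial markers summed to between 1.74 and 2.10 CPM in control and between 0.544 and 0.699 CPM in shMUC1 libraries, and PECAM1 among them was lower (log2 fold change -1.94, edgeR adjusted p = 0.00032). The part of these low marker levels in the results was not tested.

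RIG-I, MDA5 and LGP2 are RNA helicases that recognise viral or misplaced double-stranded RNA, and RIG-I and MDA5 signal through the mitochondrial adaptor MAVS. The enzyme cGAS recognises DNA in the cytosol and makes a cyclic dinucleotide that activates STING at the endoplasmic reticulum. MAVS, STING and, by way of TICAM1, the endosomal RNA receptor TLR3 converge on the kinase TBK1, which phosphorylates IRF3 and so turns on type I interferon genes. PKR stops translation when it binds double-stranded RNA, and ADAR edits adenosines in such RNA and so keeps the cell's own transcripts from being sensed. Several of these genes are themselves interferon-inducible, which gives the pathway a positive loop.

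The promoters are shown for the members whose windows hold a repeat of the kind found in interferon-stimulated response elements, the sites bound by interferon regulatory factors. RefSeq windows (GRCh38.p14) of 300 bases, 250 before and 50 from the annotated start, were held for 7 of the 10 genes. DHX58, CGAS and TMEM173 had none. Capitals mark GAAA, any 2 bases, GAAA (or TTTC, any 2 bases, TTTC on the other strand) in IFIH1, TLR3 and EIF2AK2. In DDX58 they mark the same repeat with 1 base between its parts.
DDX58, chr9:32526147-32526446, minus strand: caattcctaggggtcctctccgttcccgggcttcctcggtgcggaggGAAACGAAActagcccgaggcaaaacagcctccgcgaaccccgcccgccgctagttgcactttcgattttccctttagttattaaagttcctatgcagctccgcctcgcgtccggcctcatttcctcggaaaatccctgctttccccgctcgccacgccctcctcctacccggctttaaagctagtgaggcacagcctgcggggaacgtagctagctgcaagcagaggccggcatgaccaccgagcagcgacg
IFIH1, chr2:162318635-162318934, minus strand: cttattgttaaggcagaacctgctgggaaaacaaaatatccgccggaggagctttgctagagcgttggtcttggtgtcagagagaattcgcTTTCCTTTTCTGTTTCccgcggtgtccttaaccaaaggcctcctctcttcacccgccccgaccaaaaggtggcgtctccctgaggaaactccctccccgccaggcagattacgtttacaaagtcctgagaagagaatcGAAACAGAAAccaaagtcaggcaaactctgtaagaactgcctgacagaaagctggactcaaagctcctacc
TLR3, chr4:186068906-186069205, plus strand: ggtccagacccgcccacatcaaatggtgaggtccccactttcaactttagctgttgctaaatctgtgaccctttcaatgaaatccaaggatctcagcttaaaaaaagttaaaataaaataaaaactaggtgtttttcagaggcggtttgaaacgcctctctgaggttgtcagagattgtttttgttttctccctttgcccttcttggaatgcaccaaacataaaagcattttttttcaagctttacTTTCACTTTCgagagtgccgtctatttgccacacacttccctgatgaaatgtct
EIF2AK2, chr2:37156931-37157230, minus strand: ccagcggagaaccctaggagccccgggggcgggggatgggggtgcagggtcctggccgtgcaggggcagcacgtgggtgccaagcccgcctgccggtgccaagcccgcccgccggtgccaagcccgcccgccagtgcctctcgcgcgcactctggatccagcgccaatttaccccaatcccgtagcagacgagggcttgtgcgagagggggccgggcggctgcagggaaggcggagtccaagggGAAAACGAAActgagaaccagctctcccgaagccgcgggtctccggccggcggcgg

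The repeat with 2 free bases was in 3 of the 7 genes' windows, and in 1255 of all 35116 RefSeq windows (3.57%). IFIH1 held 3 matches that began 159, 153 and 21 bases upstream of the start, of which the first and second overlap each other. TLR3 held 1 match at 4 bases and EIF2AK2 held 1 at 6 bases upstream. The form with 1 free base was searched after the DDX58 window had been seen. It began 203 bases upstream in DDX58, was in no other member's window and was in 3.12% of all windows. The STAT-type element TTCNNNGAA, which reads the same on both strands, was in TLR3 at 178 and 50 bases upstream, in no other member, and in 7.66% of all windows. Its matches overlapped no repeat. No repeat or STAT-type letters were in the windows of MAVS, TBK1 or ADAR, for which 3 windows were held. These are matches of letters and not shown to be bound sites.

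Between the groups, 3 of the 9 tested members were higher in shMUC1 cells (EIF2AK2, ADAR and TBK1), 4 were lower (DDX58, MAVS, CGAS and TMEM173), and IFIH1 and TLR3 did not pass an adjusted p under 0.05. The share called, 77.8%, stands beside 48.7% of all tested genes, of which 25.2% were higher and 23.6% lower. None of the 9 passed a fold change over 2, against 5.95% of all tested genes (2.21% higher and 3.74% lower). Groups did not overlap for 6 of the 9, against 54.8% of all tested genes. The median log2 fold change was -0.16 over the 9 members and 0.0006 over all tested genes, whose median absolute change was 0.24. The members' median was -0.0111 without control replicate 1, -0.0554 without shMUC1 replicate 3 and -0.0712 at a mean of at least 50 counts. In bulk RNA, fewer cells that express a gene and less RNA per cell cannot be told apart.

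**Figure D1:**
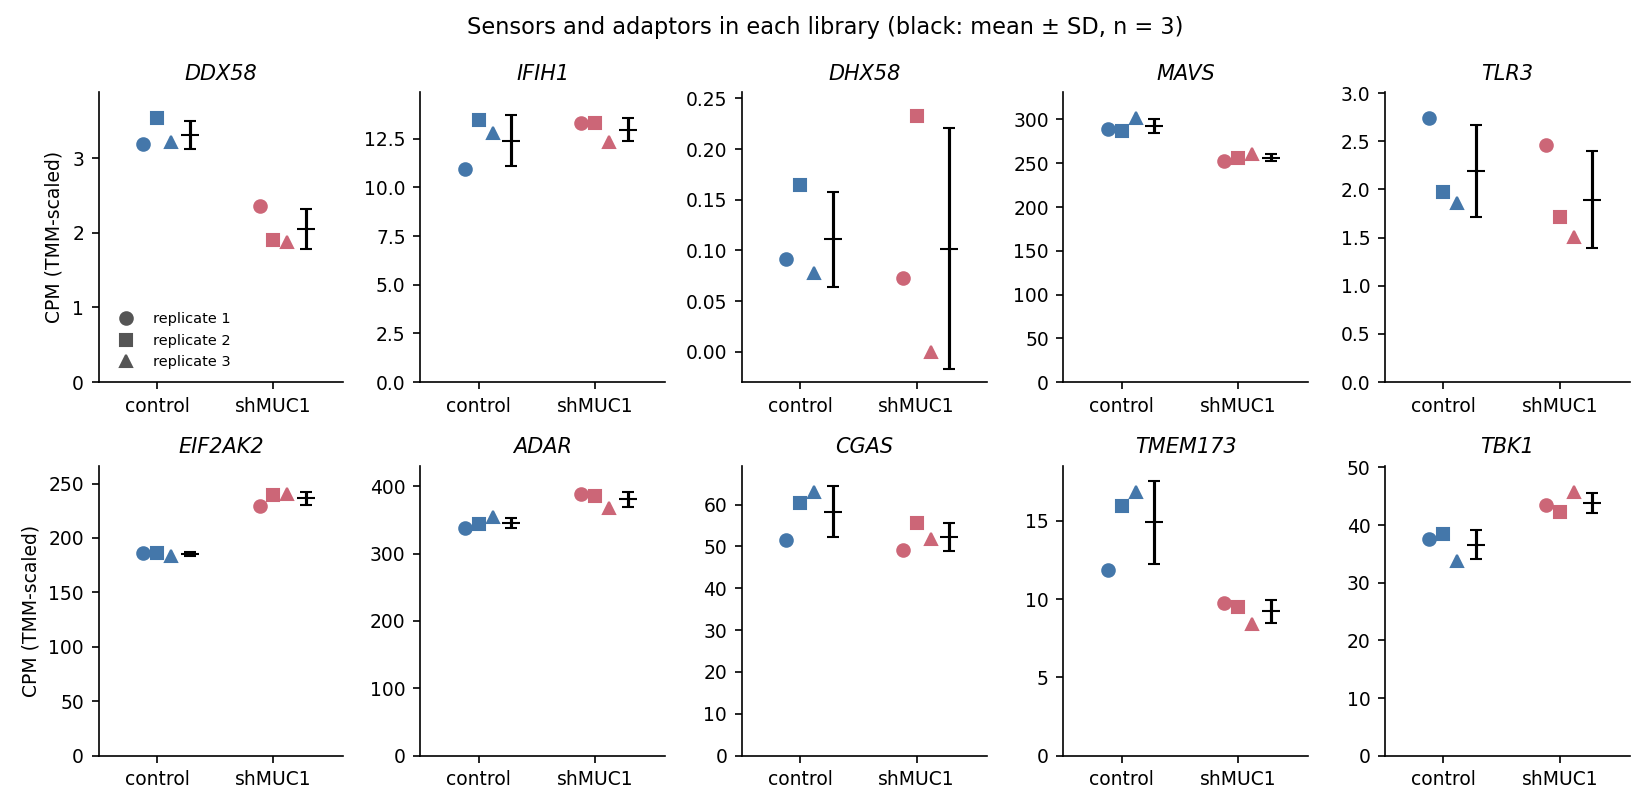
Level of each of the 10 genes in CPM (linear axes, a separate scale in each panel) in the 3 control and 3 shMUC1 libraries. Points are libraries, with shapes for the replicate number, and black marks give mean ± SD (n = 3); the DHX58 axis starts just below 0. DDX58, MAVS and TMEM173 lie lower and EIF2AK2, ADAR and TBK1 higher in every shMUC1 library.

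**Figure D2:**
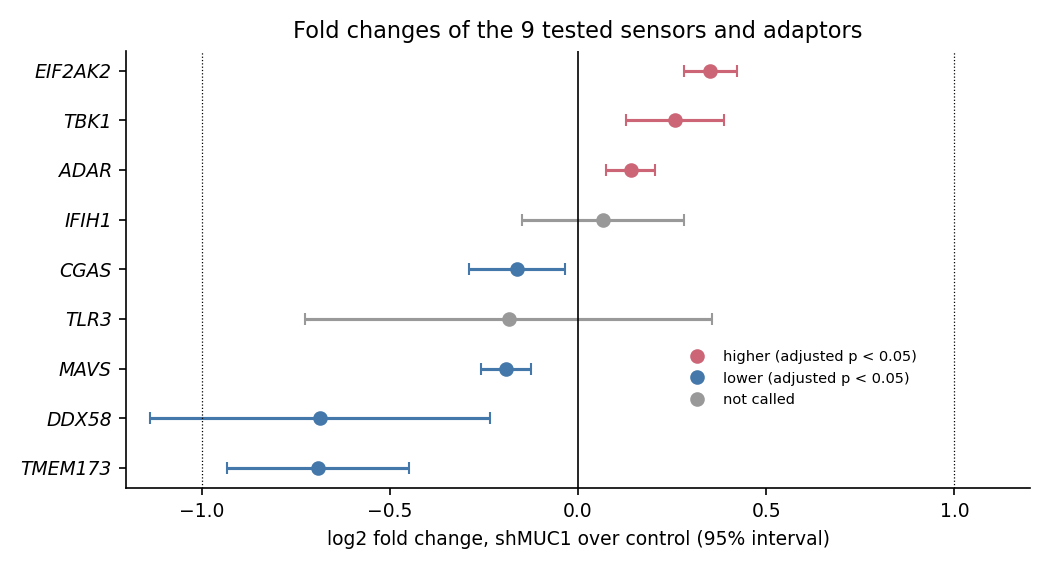
Log2 fold change, shMUC1 over control, of the 9 tested members by edgeR, with 95% intervals. Dotted lines stand at a fold change of 2. EIF2AK2 lies highest at 0.35, and DDX58 and TMEM173 lowest, at -0.69 each.

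Among the RIG-I-like receptors, DDX58 was lower and IFIH1 did not pass the test. DDX58 (chr9:32455705-32526324, minus strand; GENCODE 29 on GRCh38, as for all gene positions below) encodes RIG-I, which binds short double-stranded RNA with a 5′ triphosphate. It had 70, 86 and 83 counts in control and 65, 49 and 35 in shMUC1 libraries, equal to 3.19, 3.53 and 3.21 CPM against 2.35, 1.90 and 1.88 CPM. Every shMUC1 library lay below every control library, and replicate 1 was the highest of the 3 shMUC1 libraries. DDX58 fell by 0.69 in log2 units (95% interval -1.14 to -0.23, SE 0.223) and had an edgeR adjusted p of 0.0103.

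IFIH1 (chr2:162267079-162318703, minus strand) encodes MDA5, which forms filaments on long double-stranded RNA. Its level was 10.9, 13.5 and 12.8 CPM in control and 13.3, 13.3 and 12.3 CPM in shMUC1 libraries. The groups overlapped, and control replicate 1 was the lowest library. The log2 fold change was 0.07 (SE 0.106) and had an edgeR adjusted p of 0.644 and a 95% interval from -0.15 to 0.28. Without control replicate 1 it was -0.01. The number of IFIH1 counts per DDX58 count needs no scaling between libraries. It was 3.43, 3.81 and 3.98 in control and 5.65, 7.0 and 6.54 in shMUC1 libraries, with no overlap. DDX58 was already apart between the groups, so this ratio adds no further support.

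DHX58 (chr17:42101404-42112733, minus strand) encodes LGP2, a helicase without the signalling domain of the other two. It had 2, 4 and 2 counts in control and 2, 6 and 0 in shMUC1 libraries. Both sums were 8, equal to 0.112 CPM in control (exact Poisson 95% interval 0.0482 to 0.220) and 0.110 in shMUC1 (0.0476 to 0.217). The 0 in shMUC1 replicate 3 allows up to 0.161 CPM, at 3 counts. For these sums, intervals and the floor, CPM used unscaled library totals, unlike the scaled CPM given elsewhere. A difference in DHX58 was not detectable at this depth. Intervals and floors cover counting error only and treat each count as independent. All DHX58 counts were even. If both reads of a pair were counted, the intervals are too narrow and the floors too low.

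MAVS (chr20:3846799-3876123, plus strand), the adaptor of both signalling helicases, was next to ADAR in level per exon length in control cells. It had 289, 287 and 301 CPM in control and 252, 255 and 260 CPM in shMUC1 libraries. The groups were apart, with a gap wider than the spread within either group. MAVS fell by 0.19 in log2 units (95% interval -0.26 to -0.12, SE 0.0333), a decrease of 12.4%, with an adjusted p of 8.39e-06 by edgeR.

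TLR3 (chr4:186069152-186088069, plus strand), the endosomal receptor for double-stranded RNA, was low in both groups. Its level was 2.74, 1.97 and 1.86 CPM in control and 2.46, 1.71 and 1.51 CPM in shMUC1 libraries. Replicate 1 was the highest library of each group, and the groups overlapped. The log2 fold change was -0.18 (SE 0.267) and had an edgeR adjusted p of 0.604. Its 95% interval, -0.73 to 0.36, takes in changes as large as those of DDX58 and EIF2AK2, and without control replicate 1 the value was 0.0025.

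The RNA-binding effectors EIF2AK2 and ADAR were both higher. EIF2AK2 (chr2:37099210-37157065, minus strand) encodes PKR, a kinase of the translation factor eIF2α. It had 187, 186 and 183 CPM in control and 229, 239 and 240 CPM in shMUC1 libraries. The lowest shMUC1 library lay far above the highest control library on the scale of the spread within either group. EIF2AK2 rose by 0.35 in log2 units (95% interval 0.28 to 0.42, SE 0.0349), an increase of 27.6%, with an adjusted p of 8.91e-11 by edgeR. It shares 35 exon bases with GPATCH11 and 401 with the pseudogene AC007899.1, both on the opposite strand. The strand setting of the counting is not given in the sources used here.

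ADAR (chr1:154582057-154628013, minus strand) edits adenosine to inosine in double-stranded RNA. It had 339, 344 and 354 CPM in control and 388, 385 and 367 CPM in shMUC1 libraries. Groups were apart, though shMUC1 replicate 3 came close to control replicate 3. ADAR rose by 0.14 in log2 units (95% interval 0.07 to 0.20, SE 0.0324), or 10.1%, with an adjusted p of 0.000461 by edgeR. Counts per gene do not separate the constitutive nuclear isoform from the interferon-inducible one, which start at different promoters.

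On the DNA-sensing side, CGAS and TMEM173 were lower, with unequal support. TMEM173 (chr5:139475534-139482935, minus strand) encodes STING. It had 260, 389 and 435 counts in control and 270, 244 and 156 in shMUC1 libraries, equal to 11.9, 16.0 and 16.8 CPM against 9.77, 9.47 and 8.39 CPM. All shMUC1 libraries lay below all control libraries, and control replicate 1 stood nearest to them. TMEM173 fell by 0.69 in log2 units (95% interval -0.93 to -0.45, SE 0.119), a decrease of 38.0%, with an adjusted p of 7.2e-06 by edgeR. Without control replicate 1 its log2 fold change was -0.82.

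CGAS (chr6:73413515-73452276, minus strand) encodes the DNA sensor that makes the messenger bound by STING. Its level was 51.5, 60.5 and 63.0 CPM in control and 49.2, 55.7 and 51.8 CPM in shMUC1 libraries. The groups overlapped, since control replicate 1 lay below shMUC1 replicates 2 and 3. CGAS fell by 0.16 in log2 units (95% interval -0.29 to -0.04, SE 0.0626) and had an edgeR adjusted p of 0.0304. The call was lost without control replicate 2 (-0.14, adjusted p = 0.101), control replicate 3 (-0.12, 0.164), shMUC1 replicate 1 (-0.12, 0.202) or shMUC1 replicate 3 (-0.15, 0.0821), and under DESeq2 (adjusted p = 0.0578). CGAS shares 180 exon bases with DDX43 on the opposite strand.

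CGAS was the 1 gene of the 10 whose annotated 3′ UTR held the word ATCAGTA, which had been tied to lower expression in an earlier analysis of these same data. The site lies at chr6:73424680-73424686 on the minus strand, shown with the word in capitals:
CGAS 3′ UTR site: aataaactctaATCAGTAtaaaggattga
Over tested genes with an annotated 3′ UTR, 1661 (12.8%) held the word, with a median log2 fold change of -0.12 and 43.2% called lower. The other 11359 had a median of 0.03, and 22.4% of them were lower. Since the word was taken from these same data, this contrast is no independent support. The length of the 3′ UTR was not taken into account. The match in CGAS is a description, and DDX58, MAVS and TMEM173, which were also lower, do not carry the word.

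TBK1 (chr12:64451880-64502108, plus strand), the kinase on which the adaptors converge, went the other way from MAVS and TMEM173. It had 37.6, 38.5 and 33.7 CPM in control and 43.4, 42.2 and 45.7 CPM in shMUC1 libraries. The groups were apart. TBK1 rose by 0.26 in log2 units (95% interval 0.13 to 0.39, SE 0.0646), or 19.5%, with an adjusted p of 0.00106 by edgeR. The antisense transcript AC135279.3 covers 702 of its exon bases. Within libraries, TBK1 counts per TMEM173 count were 3.17, 2.41 and 2.002 in control and 4.44, 4.46 and 5.46 in shMUC1 libraries. EIF2AK2 counts per MAVS count were 0.646, 0.648 and 0.608 in control and 0.909, 0.936 and 0.924 in shMUC1 libraries. Neither ratio overlapped between groups. This follows from the members' own levels, which were already apart in opposite directions, and adds no further support.

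**Figure D3:**
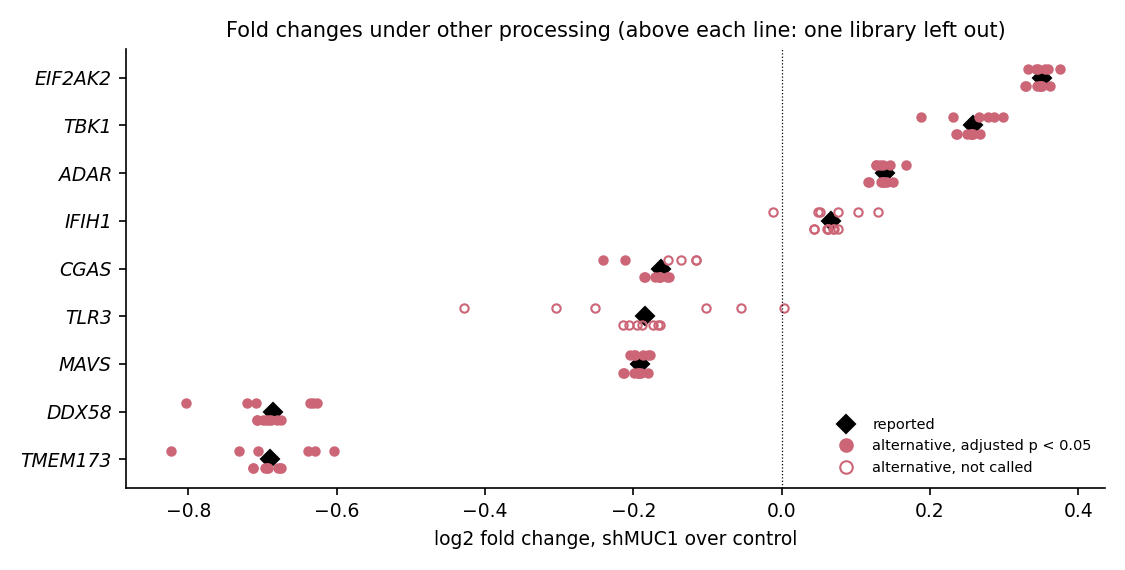
Log2 fold change of the 9 tested members as reported (diamonds) and under the other processing choices (circles), with the values that leave out 1 library above each line. Filled circles passed an adjusted p under 0.05. CGAS has both filled and open circles and ran from -0.24 to -0.12 with 1 library left out.

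Levels of different genes were compared as CPM per kilobase of the union of a gene's annotated exons. In control cells the order of mean levels was ADAR (35.6), MAVS (24.8), EIF2AK2 (17.2), CGAS (14.0), TBK1 (7.69), TMEM173 (3.87), IFIH1 (2.43), DDX58 (0.761), TLR3 (0.325) and DHX58 (0.0289), and no neighbours overlapped across libraries. In shMUC1 cells EIF2AK2 (22.0) stood beside MAVS (21.8) and IFIH1 (2.54) beside TMEM173 (2.39), and each of these pairs overlapped. The other neighbours kept their order without overlap. The ranking is approximate, since the union includes exons that most transcripts skip and understates genes with long alternative ends such as MAVS and EIF2AK2.

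**Figure D4:**
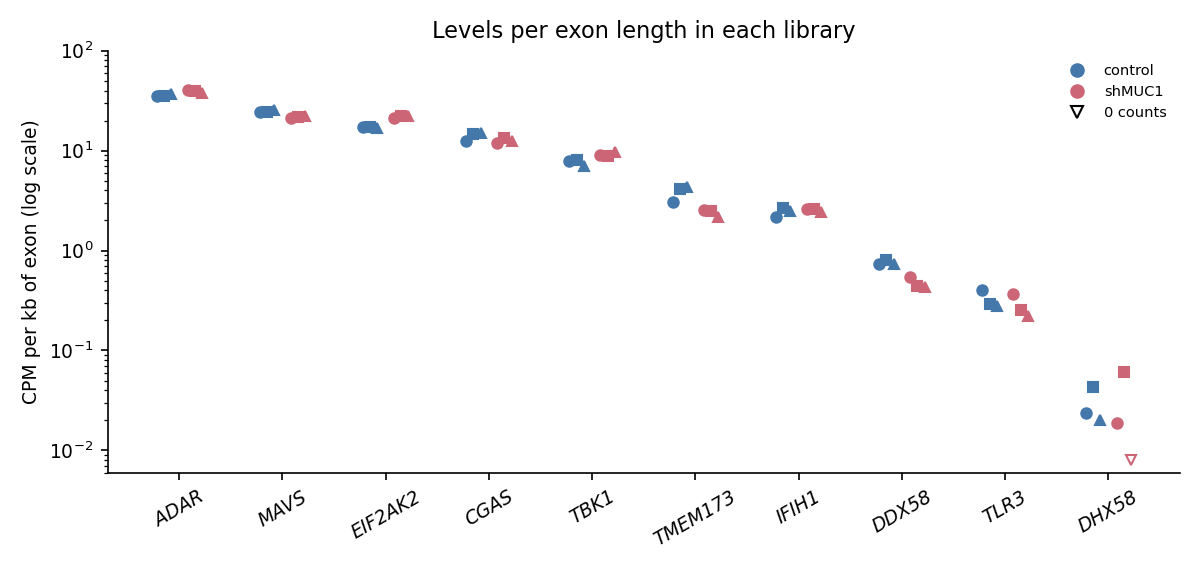
CPM per kilobase of annotated exon on a log axis for each gene, ordered by the control mean, with 1 point per library in shapes that follow the replicate number. The open triangle marks the DHX58 library with 0 counts, drawn at the bottom of the axis. Levels span from 35.6 for ADAR to 0.0289 for DHX58 in control cells.

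The other genes of the pathway were taken as 9 lists. Of their 98 genes, 85 were tested, 22 were higher, 23 lower and 40 did not pass, a share called of 52.9% against 48.7% of all tested genes. Their median log2 fold change was -0.07. All adjusted p in the lists are from the same edgeR test over all tested genes.

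Of 14 cofactors and regulators of the RIG-I-like receptors, 5 were higher and 5 lower, with a median log2 fold change of -0.07. ZNFX1, a helicase that binds viral RNA and works with MAVS, rose from 124 ± 4.21 CPM in control to 165 ± 3.96 CPM in shMUC1 cells (SD, n = 3 each), or 0.41 in log2 units (edgeR adjusted p = 2.74e-11). The antiviral zinc finger protein ZC3HAV1 rose by 0.21. DDX60, a helicase linked to RIG-I signalling, fell from 14.4 ± 1.25 CPM in control to 9.39 ± 1.38 CPM in shMUC1 cells (SD, n = 3 each), or -0.60 in log2 units (edgeR adjusted p = 3.22e-05). DHX9 fell by 0.16. The ubiquitin ligase RNF125, which marks RIG-I for degradation, had a log2 fold change of 0.37 that was not called without control replicate 2 (0.34), shMUC1 replicate 1 (0.27) or shMUC1 replicate 2 (0.37). PCBP2, which promotes loss of MAVS, had -0.11 and was not called without control replicate 1 (-0.11), control replicate 3 (-0.10) or shMUC1 replicate 1 (-0.09). RNF125 and PCBP2 share 539 and 1097 exon bases with AC011825.3 and AC023509.1 on the same strand, which may affect their counts.

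Of 10 other receptors and adaptors, 6 were tested, with 1 higher and 2 lower and a median of -0.10, which ran from -0.186 without shMUC1 replicate 1 to -0.0016 without shMUC1 replicate 3. MYD88, the adaptor of most Toll-like receptors, rose by 0.24 (adjusted p = 0.000612 by edgeR). The DNA sensor DDX41 fell by 0.18. UNC93B1, which brings TLR3 to endosomes, had -0.30, and was not called without control replicate 1 (-0.24), shMUC1 replicate 1 (-0.25) or shMUC1 replicate 3 (-0.25). ZBP1 had 0 counts in all libraries, and TLR7 and TLR8 at most 2 in any. TLR9 was also at 0, but 3341 of its exon bases are shared with AC097637.1 on the same strand. That gene has no row of counts, so it is not known whether the 0 reflects lost reads.

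Among 8 tested nucleases and editing enzymes that remove ligands, 2 were higher and 2 lower, with a median of -0.0089. ENPP1, which degrades the cGAS product outside the cell, fell from 40.0 ± 3.61 CPM in control to 29.3 ± 0.909 CPM in shMUC1 cells (SD, n = 3 each), or -0.45 in log2 units (edgeR adjusted p = 1.28e-06). ADARB1, the paralog of ADAR, fell by 0.24. The ribonuclease H2 subunit RNASEH2C had 0.27 and lost its call without control replicate 1 (0.21), control replicate 3 (0.26) or shMUC1 replicate 2 (0.21). It shares 1439 exon bases with KAT5 on the opposite strand, which may affect its count if strand was ignored in counting. RNASEH2B had 0.20 and lost its call without control replicate 2 (0.16), shMUC1 replicate 1 (0.18) or shMUC1 replicate 3 (0.16). TREX1 was at 0 in all libraries, and its 1515 exon bases shared with ATRIP on the same strand leave its level unmeasured.

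In the OAS and RNase L branch, which cleaves RNA after double-stranded RNA is sensed, 5 of 7 genes were tested, with 2 higher, 2 lower and a median of -0.03. OAS3, the largest of the synthetases, had 27.9, 32.1 and 28.4 CPM in control and 18.7, 22.7 and 22.3 CPM in shMUC1 libraries. It fell by 0.48 (adjusted p = 8.63e-06 by edgeR). OASL, which binds RIG-I, fell from 4.21 ± 1.15 CPM in control to 2.47 ± 0.483 CPM in shMUC1 cells (SD, n = 3 each), or -0.75 in log2 units. Of the factors that lower the OAS product or hold back RNase L, ABCE1 rose by 0.11 and PDE12 had 0.13, not called without control replicate 2 (0.10). OAS1 and OAS2 had at most 8 counts in any library.

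Around PKR, 4 of 11 genes were higher and 2 lower, with a median of -0.0074 that ran from -0.03 without shMUC1 replicate 2 to 0.03 without shMUC1 replicate 1. PRKRA, the protein activator of PKR, fell from 81.8 ± 5.35 CPM in control to 63.0 ± 1.39 CPM in shMUC1 cells (SD, n = 3 each), or -0.37 in log2 units (edgeR adjusted p = 9.6e-08). The sister eIF2α kinases EIF2AK1 and EIF2AK4 rose by 0.22 and 0.16. Of the phosphatase subunits that reverse the mark on eIF2α, the constitutive PPP1R15B rose by 0.33 and the stress-induced PPP1R15A fell by 0.25, both apart between groups.

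Of 10 regulators of cGAS and STING, 1 was higher, 2 were lower and 7 did not pass, with a median of -0.06. BANF1, which binds nuclear DNA and limits cGAS there, rose from 264 ± 2.64 CPM in control to 312 ± 10.9 CPM in shMUC1 cells (SD, n = 3 each), or 0.24 in log2 units (edgeR adjusted p = 1.82e-07). RNF5, a ubiquitin ligase for STING, fell by 1.21, the one list gene here beyond a fold change of 2, though from 4.14 CPM and with a near-identical pseudogene copy that leaves the count uncertain. SURF4, which retrieves STING to the endoplasmic reticulum, had -0.07, not called without control replicate 1 (-0.08), control replicate 2 (-0.05), shMUC1 replicate 1 (-0.07) or shMUC1 replicate 3 (-0.06).

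Of 16 partners of TBK1 and factors downstream, 5 were higher and 5 lower, with a median of -0.13. TRAF3, the ubiquitin ligase that links MAVS to TBK1, had 36.3, 39.6 and 38.5 CPM in control and 26.4, 24.6 and 25.8 CPM in shMUC1 libraries. It fell by 0.58 (adjusted p = 7.92e-09 by edgeR). TRAF6 rose by 0.33, from 52.2 ± 4.46 CPM in control to 65.6 ± 1.37 CPM in shMUC1 cells (SD, n = 3 each). The TBK1-binding adaptor TBKBP1 fell by 0.87, from 2.35 CPM. IRF3, the substrate of TBK1, rose from 14.1 ± 1.97 CPM in control to 17.5 ± 1.13 CPM in shMUC1 cells (SD, n = 3 each), or 0.31 in log2 units (adjusted p = 0.0117 by edgeR), not called without control replicate 1 (0.22) or shMUC1 replicate 2 (0.26). IRF7 had 0.54, not called without control replicate 1 (0.51), control replicate 2 (0.47), shMUC1 replicate 1 (0.56) or shMUC1 replicate 2 (0.49). IKBKB had -0.25, not called without control replicate 2 (-0.22) or shMUC1 replicate 1 (-0.22). IRF3 shares 734 exon bases with BCL2L12 on the opposite strand, which may affect its count if strand was ignored in counting.

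Of 8 components of type I interferon receptor signalling, JAK1 was the 1 gene called, at 345 ± 7.62 CPM in control and 431 ± 9.14 CPM in shMUC1 cells (SD, n = 3 each). It rose by 0.32 (adjusted p = 7.51e-11 by edgeR). The 7 others did not pass. Among them, IFNAR2 and IRF9 share 2038 and 1838 exon bases with AP000295.1 and AL136295.5 on the same strand, which may affect their counts. The share called in this list was 12.5%, beside 48.7% of all tested genes. Of the 9 lists, only this one and the cGAS and STING regulators lay below 48.7%. The share was highest in the OAS and RNase L branch, with 2 higher and 2 lower of 5 tested genes. Whether the share of any list differs from that of all tested genes was not tested.

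Of 13 interferons and their induced targets, 7 were tested, with 1 higher, 3 lower and a median of -0.48. None of the listed interferon genes (IFNB1, IFNA1, IFNL1, IFNL2 and IFNL3) had more than a few counts. A difference in them was not detectable at this depth. Interferon genes outside the list are not reported here. IFNB1 and IFNA1 each had 2 counts in control replicate 1 and 0 elsewhere, and IFNL1, IFNL2 and IFNL3 had at most 4 in any library. CXCL10 had 6, 2 and 0 counts in control and 2, 0 and 2 in shMUC1 libraries. IFIT3, which binds MAVS and TBK1, fell from 6.11 ± 1.65 CPM in control to 2.87 ± 0.604 CPM in shMUC1 cells (SD, n = 3 each), or -1.09 in log2 units (edgeR adjusted p = 1.29e-05). IFIT2 fell by 0.56, and its 356 exon bases shared with AL353751.1 on the same strand may affect its count. IFIT1, which binds RNA caps that lack a methyl group, had -0.48, not called without control replicate 1 (-0.44), control replicate 3 (-0.40) or shMUC1 replicate 3 (-0.39). The ubiquitin-like ISG15, which is attached to MDA5 and other sensors, rose from 10.95 ± 1.62 CPM in control to 17.3 ± 1.27 CPM in shMUC1 cells (SD, n = 3 each), or 0.66 in log2 units (edgeR adjusted p = 2.72e-06). RSAD2 had -0.33 and MX1 0.20, neither called, with groups that overlapped, and MX1 was at -0.05 without control replicate 1. Leaving out 1 library moved RSAD2 from -0.55 (without shMUC1 replicate 2) to -0.096 (without shMUC1 replicate 3). CCL5 had -1.37 (SE 0.632, adjusted p = 0.0721 by edgeR), from 0.605 CPM in control. It was called without control replicate 2 (-1.815) or shMUC1 replicate 3 (-1.95), and was at -0.47 (adjusted p = 0.651 by edgeR) without control replicate 1.

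**Figure D5:**
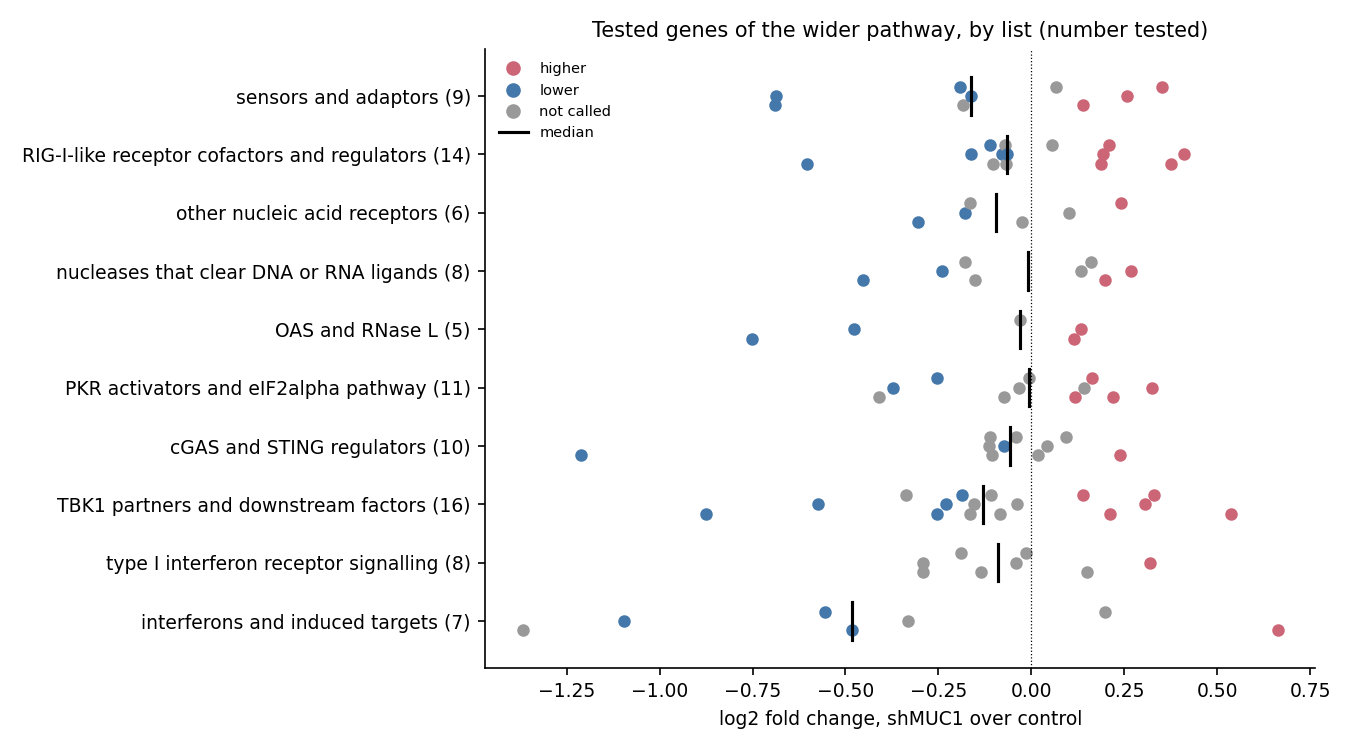
Log2 fold change, shMUC1 over control, of each tested gene in the sensors and the 9 further lists, with the number tested in brackets, a black bar at each median and colours for the call at an adjusted p under 0.05. Most points lie within a fold change of 2. RNF5 at -1.21 and IFIT3 at -1.09 are the called genes beyond it.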

How the data were processed

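The authors deposited raw read counts per gene symbol, 1 column per library, from stranded poly(A) mRNA libraries. The submitters' processing notes name CASAVA 1.8.2, STAR 2.7.9a, featureCounts, DESeq2 1.24.0 and GRCh38.p7. The annotation release, the strand setting and whether pairs were counted once are not given in the sources used here. Of values from 1 to 20 counts, 68.8% to 70.5% were even, as if each read of a pair had been counted, so halved counts were tried. In 14 rows a gene name had become a date. Symbols were matched to GENCODE 29 for 98.2% of rows.

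Counts were tested with edgeR 4.0.16 in R 4.3.3 (quasi-likelihood, TMM, filterByExpr, group as the only term, two-sided, Benjamini-Hochberg over 15355 genes). A gene was called where its adjusted p was under 0.05. CPM used TMM-scaled library sizes, except in the sums, intervals and floor given for DHX58, which used unscaled library totals. Standard errors came from the F statistic. Tests were run on simulated data first.

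Alternatives were DESeq2 1.42.0, limma-voom 3.58.1, scaling by DESeq2 size factors or by library totals alone, testing without a low-count filter or above a mean of 50 counts, a replicate block, halved counts, a fold change over 1.5 and each library left out. Named genes were the 10 members, MUC1, up to 3 rises and 3 falls per list among called genes, and all listed interferons and targets. The members and lists were chosen with earlier results of these data known. Some related genes were left out and are not reported here.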

Additional observations from a re-analysis of the deposited data

How the results depend on the processing

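Across 14 alternatives, DDX58 (log2 fold change -0.80 to -0.63), MAVS (-0.21 to -0.18), EIF2AK2 (0.33 to 0.38), ADAR (0.12 to 0.17), TMEM173 (-0.82 to -0.60), TBK1 (0.19 to 0.30) and MUC1 kept their direction and call. Leaving out 1 library at a time gave -0.0111 to 0.13 for IFIH1, -0.43 to 0.0025 for TLR3 and -0.24 to -0.12 for CGAS. IFIH1, TLR3 and, among the interferon targets, MX1 (-0.0486 to 0.51) turned sign without control replicate 1, and none was called. DESeq2 gave -0.16 for CGAS (adjusted p = 0.0578), and over all its alternatives the adjusted p ran from 0.00218 to 0.202. TLR3 was not tested at a mean of at least 50 counts. Genes past a fold change of 2 numbered 339 higher and 575 lower, 177 and 275 at a mean of at least 50 counts, and 846 and 1280 past a fold change of 1.5. Wider pathway genes called lower numbered 15 to 23 with 1 library left out, fewest without shMUC1 replicate 1. List medians with 1 library left out were -0.14 to -0.0111 for the sensors and adaptors, -0.0695 to -0.0296 for the RIG-I-like receptor cofactors, -0.186 to -0.0016 for the other receptors, -0.146 to 0.0431 for the nucleases, -0.11 to 0.0083 for the OAS branch, -0.0308 to 0.029 for the PKR pathway, -0.151 to -0.0859 for the TBK1 partners and -0.14 to 1.2e-05 for interferon receptor signalling. At a mean of at least 50 counts the medians were -0.0712 (sensors and adaptors), -0.0894 (RIG-I-like receptor cofactors), -0.189 (other receptors), -0.17 (nucleases), 0.0321 (PKR pathway) and -0.0517 (interferon receptor signalling). The median was -0.0887 for the RIG-I-like receptor cofactors with library totals only, -0.16 for the nucleases with halved counts and 0.12 for the OAS branch with no low-count filter. The cause of these changes was not tested. Another filter also altered how many genes were fitted. Without a low-count filter PCBP2 (adjusted p = 0.0595) and SURF4 (0.129) were not called, nor was IRF7 under DESeq2 (0.0513). Depth limits DHX58, the listed interferons and TLR3.

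Replicate numbers did not pair the libraries. The correlations of same-numbered libraries' deviations from their group means were 0.0167, -0.0311 and -0.0359. With the replicate number as a block, 339 genes were higher and 558 lower past a fold change of 2, and no member's call changed.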

Other observations

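Genes that keep the cell's own double-stranded RNA from building up or bind it were listed after the members' values had been seen, so their counts are a description. Of 15 such genes, all tested, 5 were higher and 5 lower in shMUC1 cells, with a median log2 fold change of 0.04. The share called was 66.7%, beside 48.7% of all tested genes. ZFR, a zinc finger protein that binds double-stranded RNA, had 200, 202 and 201 CPM in control and 147, 155 and 153 CPM in shMUC1 libraries. It fell by 0.41 in log2 units (SE 0.0364), with an edgeR adjusted p of 6.2e-12, and the groups were far apart. STRBP, a related binding protein, fell from 102 ± 4.27 CPM in control to 80.1 ± 2.95 CPM in shMUC1 cells (SD, n = 3 each), or -0.34 in log2 units (edgeR adjusted p = 5.64e-08).

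Members of the HUSH complex, which silences transposable elements, moved in opposite directions. MPHOSPH8 rose from 11.6 ± 1.12 CPM in control to 17.0 ± 1.48 CPM in shMUC1 cells (SD, n = 3 each), or 0.56 in log2 units (edgeR adjusted p = 2.17e-05). PPHLN1 rose by 0.18, and TASOR fell by 0.24, from 44.9 ± 2.91 CPM in control to 37.7 ± 2.48 CPM in shMUC1 cells (SD, n = 3 each). SETDB1, the methyltransferase recruited by the complex, rose by 0.18. PNPT1, which degrades double-stranded RNA in mitochondria, fell by 0.22 (adjusted p = 0.00054 by edgeR), and mitochondrially encoded genes took 3.35% to 4.17% of counts in control and 4.95% to 5.22% in shMUC1 libraries. STAU1, which binds double-stranded stems in 3′ UTRs, rose by 0.19.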
